A study of Rattus norvegicus with 6 samples.

Results

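The genes described here are 10 transcription factors that build and maintain heart muscle: Gata4, Gata6, Nkx2-5, Tbx5, Tbx20, Mef2a, Mef2c, Mef2d, Hand2 and Srf. They were taken by symbol from the deposited table, which lists 28293 genes after rows of the same symbol were summed, and each of the 10 was found in 1 row. The study sequenced 3 samples of rat myocardium from sham operations and 3 with myocardial ischemia/reperfusion injury (MI/RI), each taken here as 1 rat, which the labels do not state, to compare gene expression in the injured heart with that of the operated control. All 6 rats were male and carried a wild-type (WT) genotype. For MI/RI, the left anterior descending coronary artery was tied for 30 min and the heart was taken after 6 h of reperfusion, and the sample titles give the sham rats the same times. Strain, age and the piece of heart used are not given in the sources used here, nor is it said whether the sequenced rats received the vehicle injection that the study's methods describe for sham and reperfusion groups.

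These factors work as a network. GATA factors are zinc finger proteins, Nkx2-5 is a homeodomain protein, Tbx5 and Tbx20 are T-box proteins (Tbx5 mostly activates and Tbx20 can also repress), Hand2 is a basic helix-loop-helix protein, and the MEF2 factors and Srf share the MADS box, a DNA-binding fold. They bind together at the enhancers of contractile and ion-handling genes, Srf also drives immediate early genes and actin genes, and in the adult heart several of them are further present in fibroblasts, endothelium and smooth muscle.

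RefSeq promoter sequences (build GRCr8) were held for 8 of the 10 genes, all but Gata4 and Mef2c. The 250 bases before the RefSeq start are shown for Srf and Nkx2-5, whose RNA differed most between the groups, and for Mef2a, the one factor whose promoter matched the MEF2 box. Capitals mark the CArG box (the Srf site) in Srf, the MEF2 box in Mef2a and CANNTG, the letters read by basic helix-loop-helix proteins such as Hand2, in Nkx2-5. The stretches are chr9:21923826-21924075 on the plus strand for Srf, chr10:16848350-16848599 on the plus strand for Nkx2-5 and chr1:130392163-130392412 on the minus strand for Mef2a, each written 5′ to 3′ on the strand of its gene.
Srf: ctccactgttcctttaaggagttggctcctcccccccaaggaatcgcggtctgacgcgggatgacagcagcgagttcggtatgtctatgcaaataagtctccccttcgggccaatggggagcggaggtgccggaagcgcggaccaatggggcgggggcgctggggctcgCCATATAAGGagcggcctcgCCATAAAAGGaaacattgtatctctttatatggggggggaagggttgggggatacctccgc
Nkx2-5: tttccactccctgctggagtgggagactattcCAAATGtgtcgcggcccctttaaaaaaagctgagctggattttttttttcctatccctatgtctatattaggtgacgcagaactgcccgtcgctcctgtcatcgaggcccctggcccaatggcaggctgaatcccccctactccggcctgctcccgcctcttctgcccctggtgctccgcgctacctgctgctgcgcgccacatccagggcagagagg
Mef2a: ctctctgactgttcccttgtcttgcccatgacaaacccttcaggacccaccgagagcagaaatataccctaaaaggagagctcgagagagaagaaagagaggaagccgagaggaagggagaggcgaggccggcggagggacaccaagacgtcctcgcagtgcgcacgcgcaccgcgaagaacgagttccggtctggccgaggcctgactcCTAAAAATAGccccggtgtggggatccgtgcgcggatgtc

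The Srf promoter held a pair of CArG boxes, CCATATAAGG from 81 to 72 and CCATAAAAGG from 61 to 52 bases before the start. Of all 33469 RefSeq promoters of this length, 501 (1.5%) held a CArG box on either strand, and Srf was the only one of the 8 factors that did. The MEF2 box of Mef2a, CTAAAAATAG, lay 40 to 31 bases before its start, and 2.96% of all promoters held such a box. CANNTG was found in Nkx2-5, Tbx5 and Hand2 (65.5% of all promoters), GATAA in Tbx5 and Hand2 (23.5%), AAGTG, the core of the Nkx2-5 site, in Hand2 (40.6%), where it overlapped a CANNTG match, and AGGTGT, a T-box core, in none of the 8 (11.6%). All motifs were searched on both strands, and a match describes the letters and is no evidence of binding.

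Expression is given in FPKM, fragments scaled to gene length and to the library's fragments, and differences as a log2 fold change, MI/RI minus sham, of log2(FPKM + 0.1), so that changes of weakly expressed genes come out too small. A gene was called at an adjusted p under 0.05 (limma, Benjamini-Hochberg over the 10942 genes with a mean of at least 0.5 FPKM). Total FPKM ranged from 894902 to 928941 among sham samples and from 731063 to 825490 among MI/RI samples, and the 13 mRNAs of mitochondrial DNA took 80.1% to 86.2% and 61.8% to 71.5% of that sum. The absolute depth is unknown. The steps between low values put the MI/RI libraries at 0.873 to 0.935 times and the sham libraries at 1 to 1.18 times the depth of sham replicate 1. Cardiomyocyte markers were abundant in all 6 samples. Sham replicate 1 stood apart from its group, with a mean log2 marker level of 8.95 against 7.78 and 7.45. MI/RI replicate 3 stood apart by an atrial gene, Myl7 (133 FPKM against 0.905 to 3.57 in the other samples). MI/RI replicate 1 had a mitochondrial share of 61.8% against 70.9% and 71.5% in its group. Its sum over the 10 factors was 137 FPKM against 66.5 and 62.0 FPKM, and its mean log2 marker level 10.64 against 10.05 and 10.03.

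In the MI/RI hearts, 5 of the 10 factors were called higher, which were Nkx2-5, Srf, Tbx20, Tbx5 and Gata4, and 0 were called lower by limma, also 0 at an unadjusted p under 0.05. The other 5, Hand2, Mef2d, Mef2a, Mef2c and Gata6, were not called in either direction. Of all genes tested, 25.5% were called higher and 7.36% lower. The 5 called factors were also the 5 in which every MI/RI rat lay above every sham rat, a separation seen in 37.2% of all genes tested. MI/RI replicate 1 had the highest value of all samples in 7 of the 10 factors and in 4 of the 5 called. The median log2 fold change was 0.94 over the 10 factors and 0.29 over all genes tested. All 10 factors passed the filter, but Tbx5 and Tbx20, with sham means of 0.498 and 0.346 FPKM, did so only through the MI/RI group.

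**Figure D1:**
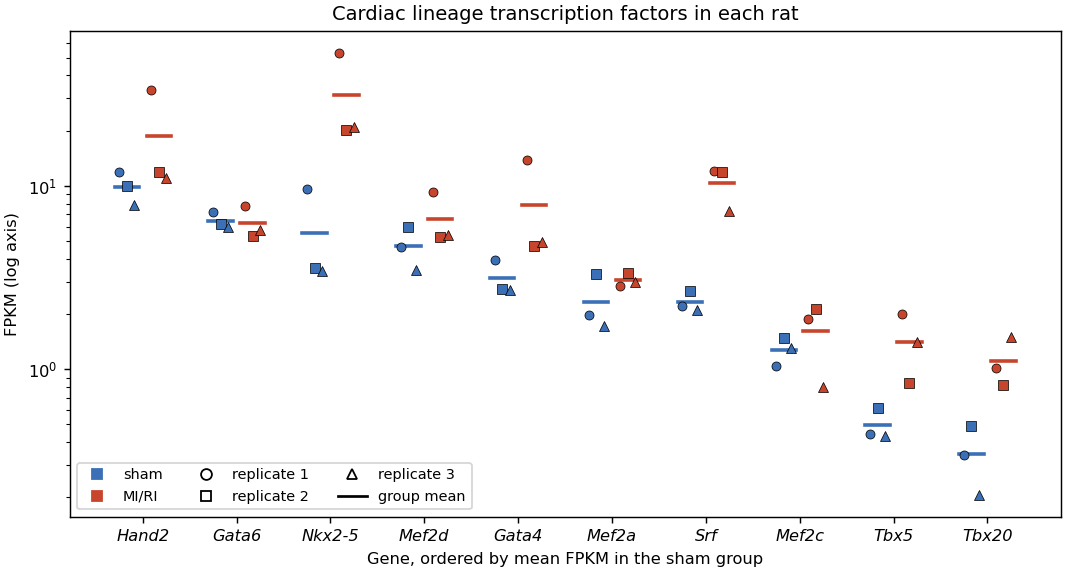
FPKM of each factor (log axis) in every rat, with sham rats in blue, MI/RI rats in red, a symbol for each replicate and a bar at the group mean. The red points lie wholly above the blue ones for Nkx2-5, Gata4, Srf, Tbx5 and Tbx20, and the groups overlap for the other 5 genes.

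Nkx2-5 (ENSRNOG00000020747), the homeodomain factor that marks the cardiac lineage and drives chamber muscle genes, differed most. Replicates 1 to 3 gave 9.62, 3.55 and 3.43 FPKM in the sham rats, against 52.8, 20.2 and 21.0 FPKM after MI/RI. In each group replicate 1 was well above the other two, yet the lowest MI/RI value was above the highest sham value. Mean expression went from 5.53 ± 3.54 to 31.3 ± 18.6 FPKM (SD, n = 3 each), a 5.66-fold ratio. On the log2 scale the difference was 2.50 with a standard error of 0.47 (adjusted p = 0.0054, limma), and 1.31% of the genes tested had a larger one. It was 2.53 without both replicates 1, an alternative chosen after seeing the data.

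Srf (ENSRNOG00000018232), the MADS-box factor shared by growth-responsive and contractile genes, was measured at 2.22, 2.66 and 2.09 FPKM in the sham rats. In the MI/RI rats it was measured at 12.0, 11.9 and 7.27 FPKM. The sham values lay close together, and MI/RI replicate 3 was the lowest of its group but far above them. The mean went from 2.32 ± 0.30 to 10.4 ± 2.70 FPKM (SD, n = 3 each), a 4.47-fold ratio, and the log2 fold change was 2.08 with a standard error of 0.26 (adjusted p = 0.0017, limma). Sham replicate 1, the highest of its group for the cardiomyocyte markers and for Nkx2-5, lay between the other sham rats for Srf.

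Tbx20 (ENSRNOG00000016181), which maintains adult cardiomyocytes, was measured at 0.342, 0.489 and 0.207 FPKM in the sham rats and at 1.02, 0.823 and 1.49 FPKM in the MI/RI rats. Tbx5 (ENSRNOG00000001399), best known from limb and heart malformation when it is mutated, was measured at 0.446, 0.617 and 0.432 FPKM and at 1.99, 0.843 and 1.40 FPKM. By mean both were the lowest of the 10 factors in both groups, and in neither did the groups overlap. The mean of Tbx20 went from 0.346 ± 0.141 to 1.11 ± 0.344 FPKM (SD, n = 3 each), or by 1.45 on the log2 scale with a standard error of 0.38 (adjusted p = 0.017, limma). That of Tbx5 went from 0.498 ± 0.103 to 1.41 ± 0.575 FPKM (SD, n = 3 each), or by 1.28 with a standard error of 0.35 (adjusted p = 0.021, limma). With a pseudocount of 1 in place of 0.1 the log2 fold changes were 0.64 for Tbx20 and 0.66 for Tbx5, and both calls held. With no filter on low values the adjusted p was 0.043 for Tbx20 and 0.058 for Tbx5 (limma). Tbx5 lost its call without sham replicate 3 (adjusted p = 0.072), MI/RI replicate 1 (0.071) or MI/RI replicate 3 (0.059), and Tbx20 without sham replicate 3 (0.066) or MI/RI replicate 3 (0.074), all from limma.

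Gata4 (ENSRNOG00000010708), the zinc finger factor that acts in hypertrophic growth and in the survival of cardiomyocytes, was measured at 3.96, 2.73 and 2.70 FPKM in the sham rats and at 13.8, 4.71 and 4.94 FPKM in the MI/RI rats. MI/RI replicate 1 stood far above the rest, and the other MI/RI rats lay just above the highest sham rat. The mean went from 3.13 ± 0.717 to 7.83 ± 5.21 FPKM (SD, n = 3 each). The log2 fold change was 1.13 (standard error 0.39), and the adjusted p of 0.049999 (limma) lay just under the threshold. Without MI/RI replicate 1 it was 0.63 (adjusted p = 0.095, limma), and the call was also lost without any 1 of the 3 sham rats (adjusted p 0.056 to 0.146, limma). It was lost as well with a pseudocount of 1 (adjusted p = 0.055) or 0.01 (0.0501), with no filter on low values (0.12) and with no intensity trend (0.065, all limma).

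Gata6 (ENSRNOG00000023433), the close relative of Gata4 that is also present in vascular smooth muscle, was measured at 7.24, 6.17 and 5.96 FPKM in the sham rats and at 7.79, 5.35 and 5.76 FPKM in the MI/RI rats. The groups overlapped fully, and the log2 fold change was −0.05 with a standard error of 0.23 (adjusted p = 0.89, limma). Hand2 (ENSRNOG00000060448), which patterns the ventricle in the embryo and is also found in cardiac fibroblasts, was measured at 11.9, 10.05 and 7.84 FPKM and at 33.4, 11.9 and 11.1 FPKM. Here MI/RI replicate 1 alone exceeded the sham range by more than the spread of the sham rats. The log2 fold change of Hand2 was 0.74 with a standard error of 0.40 (adjusted p = 0.18, limma), and 0.23 without that rat.

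The MEF2 factors couple calcium and kinase signals to muscle genes, and none of the 3 genes measured was called. Mef2d (ENSRNOG00000031778) was measured at 4.67, 5.95 and 3.46 FPKM in the sham rats and at 9.27, 5.26 and 5.36 FPKM in the MI/RI rats (log2 fold change 0.47 with a standard error of 0.30, adjusted p = 0.24, limma). Mef2a (ENSRNOG00000047756) was measured at 1.97, 3.32 and 1.73 FPKM and at 2.84, 3.37 and 2.98 FPKM (log2 fold change 0.43 with a standard error of 0.27, adjusted p = 0.25, limma). Mef2c (ENSRNOG00000033134) was measured at 1.04, 1.48 and 1.31 FPKM and at 1.89, 2.13 and 0.803 FPKM (log2 fold change 0.22 with a standard error of 0.35, adjusted p = 0.66, limma). With 1 rat left out the log2 fold change of Mef2d lay between 0.21 (without MI/RI replicate 1) and 0.66 (without sham replicate 2), and that of Mef2a between 0.25 (without sham replicate 3) and 0.70 (without sham replicate 2). In each of them the groups overlapped, and for Mef2c the lowest of the 6 values was from an MI/RI rat.

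**Figure D2:**
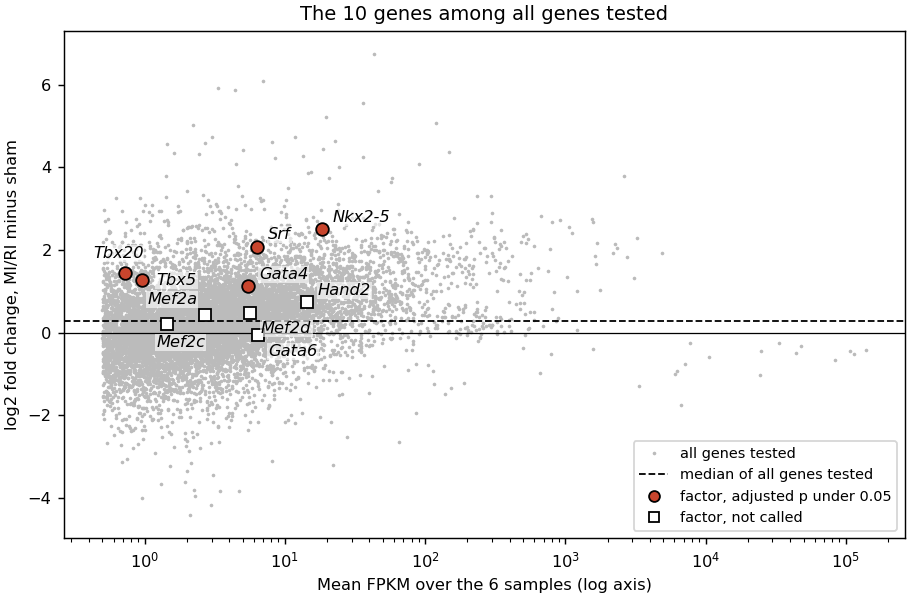
Log2 fold change (MI/RI minus sham) of every gene tested against its mean FPKM over the 6 samples (log axis), with the 10 factors marked. Nkx2-5 (2.50) and Srf (2.08) lie in the upper part of the cloud of genes, while Mef2a, Mef2c, Mef2d and Gata6 lie near the median of all genes (0.29).

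The order of the levels differed between the groups. FPKM are scaled to gene length, so levels were compared between genes, but the annotation that set these lengths is not given. In the sham group Hand2 was highest (9.92 ± 2.01 FPKM, SD, n = 3), followed by Gata6, Nkx2-5, Mef2d, Gata4, Mef2a, Srf, Mef2c, Tbx5 and Tbx20 (0.346 FPKM). Among neighbours in that order only Hand2 and Gata6, Srf and Mef2c, and Mef2c and Tbx5 had ranges that did not overlap. In the MI/RI group the order was Nkx2-5 (31.3 FPKM), Hand2 (18.8 FPKM), Srf, Gata4, Mef2d, Gata6, Mef2a, Mef2c, Tbx5 and Tbx20 (1.11 FPKM). There only Gata6 and Mef2a, and Mef2a and Mef2c, were apart. Of all genes tested, 27.3% had a higher mean than Nkx2-5 under sham and 8.55% under MI/RI, and for Srf these shares were 54.4% and 21.5%.

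Ratios between genes of one family within a sample barely move when the whole sample is rescaled, so 5 pairs were compared in this way. The ratio of Gata4 to Gata6 was 0.546, 0.443 and 0.452 among the sham rats and 1.78, 0.881 and 0.859 among the MI/RI rats, in the order of their replicate numbers. By FPKM Gata6 was thus the higher of the pair in every sham rat. The ratio was higher in all 3 MI/RI rats than in any sham rat. The log2 ratio averaged −1.04 ± 0.16 for sham and 0.14 ± 0.59 for MI/RI (SD, n = 3 each). The difference of 1.18 had p = 0.1 by an exact two-sided permutation test, the smallest that 3 rats against 3 allow, and 0.5 after adjustment over the 5 pairs. With any 1 rat left out the difference lay between 0.84 and 1.36. The groups overlapped for the other pairs. The differences were 0.21 for Mef2a to Mef2c (exact permutation p = 0.8), −0.05 for Mef2a to Mef2d (p = 0.9), −0.25 for Mef2c to Mef2d (p = 0.6) and −0.18 for Tbx5 to Tbx20 (p = 0.6), each with an adjusted p of 0.9.

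**Figure D3:**
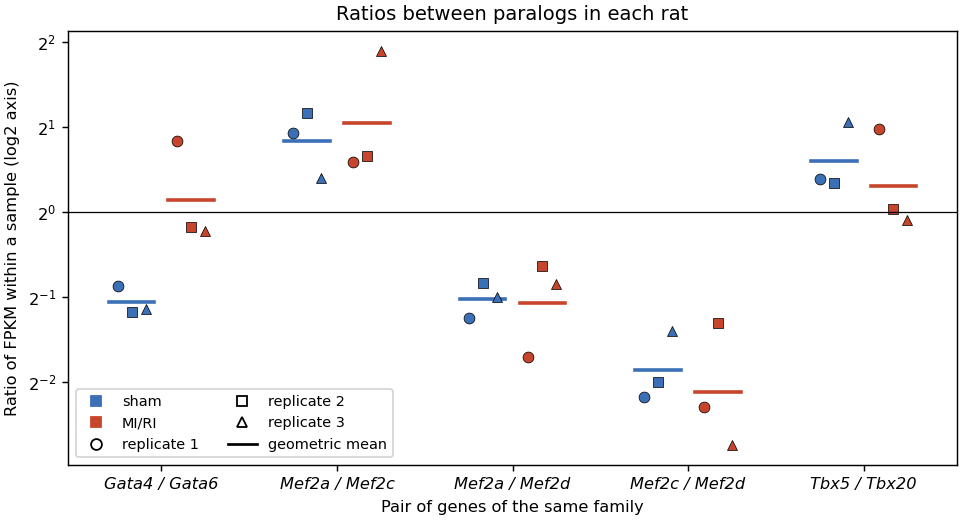
Ratio of the FPKM of paralogs within each sample (log2 axis), with sham rats in blue, MI/RI rats in red and a bar at the geometric mean. The Gata4 to Gata6 ratio is 0.443 to 0.546 in the sham rats and 0.859 to 1.78 in the MI/RI rats, and the other 4 pairs overlap between the groups.

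The direction of the fold changes held for Nkx2-5, Srf, Tbx20, Tbx5 and Gata4 when the samples were rescaled to TPM, centred on the median gene, quantile normalized or rescaled without the mitochondrially encoded mRNAs, and all but that of Nkx2-5 turned negative after centring on the cardiomyocyte markers. Over all genes the median log2 fold change was 0.48, 0.04, −0.02, −0.48 and −1.89 under these scalings. Without the mitochondrial mRNAs the 5 genes all lay above that median, at 1.74 for Nkx2-5 (adjusted p = 0.0037), 1.34 for Srf (adjusted p = 0.0052), 0.91 for Tbx20 (0.19), 0.63 for Tbx5 (0.28) and 0.37 for Gata4 (0.42, all limma). In that scaling Gata6 was called lower (log2 fold change −0.83, adjusted p = 0.024, limma). Gata4 also lost its call with the median gene as the centre (adjusted p = 0.10) or with quantile normalization (0.13, both limma).

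**Figure D4:**
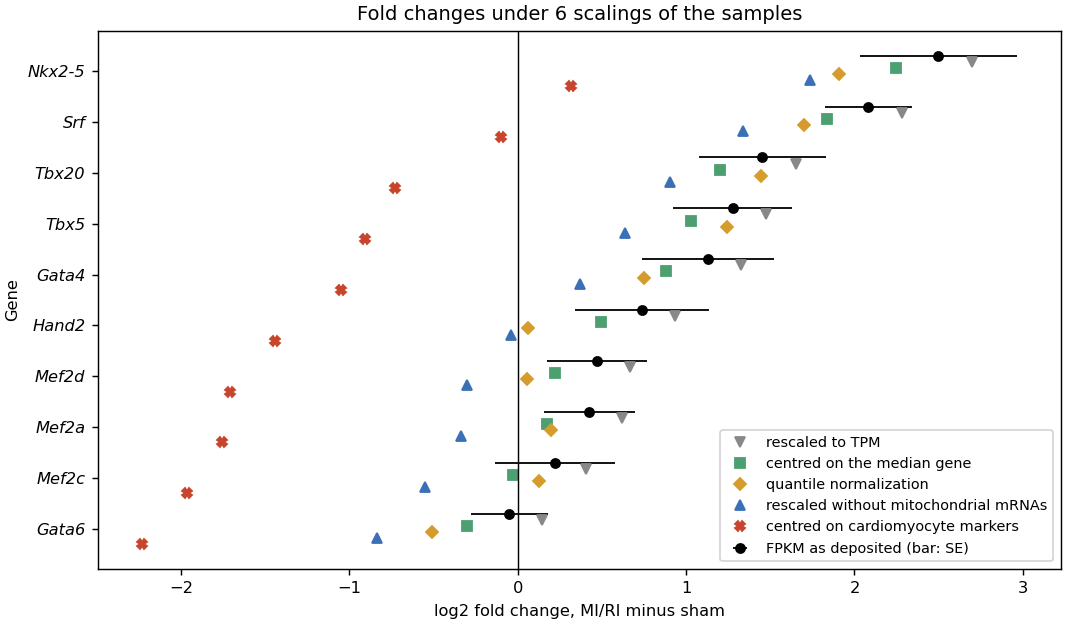
Log2 fold changes of the 10 factors under 6 scalings of the samples, with the standard error drawn for the values as deposited. Nkx2-5 and Srf keep the highest values in each scaling, and with the cardiomyocyte markers as the zero only Nkx2-5 (0.32) lies above it.

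The level of each factor was also set against the mean log2 level of 8 cardiomyocyte markers in the same sample. Of these markers, 7 of 8 were called higher, their summed level was 3482 to 11100 FPKM among sham and 21460 to 28890 FPKM among MI/RI rats, and none was at 0. Nkx2-5 lay −5.73 ± 0.15 from the marker mean in the sham rats and −5.42 ± 0.44 in the MI/RI rats (SD, n = 3 each, log2 scale), a difference of 0.32 (limma with this centring, adjusted p = 0.55). Srf lay −6.79 ± 0.82 and −6.89 ± 0.37 from it, a difference of −0.10 (adjusted p = 0.87, limma). Gata4, Tbx5 and Tbx20 differed by −1.05, −0.91 and −0.73 (adjusted p 0.076 to 0.36, limma). The 5 factors that were not called as deposited were called lower on this scale by limma. Their differences ran from −1.44 for Hand2 to −2.23 for Gata6 (adjusted p 0.00019 to 0.0074, limma). An exact permutation test gave each of these 5 p = 0.1, the smallest that 3 samples against 3 allow. The marker mean of a sample was subtracted from every gene, so its error was shared and limma p-values on this scale can be too small. This centring called 8732 of the 10942 genes lower. In bulk tissue, fewer or more cells of a type and less or more RNA per cell cannot be told apart.

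Other cell types gave lower median log2 fold changes than the cardiomyocyte markers (2.37), from −0.22 for endothelium to 0.58 for fibroblasts. The atrial genes, which mark a chamber, had a median of 1.60. Of 8 fibroblast markers 2 were called higher (Col1a1 and Tcf21, chosen after their values were seen), with a summed level of 423 to 584 FPKM in sham and 610 to 672 FPKM in MI/RI rats. Of 8 endothelial markers 0 were called by limma (1 higher and 1 lower at an unadjusted p under 0.05), and the sums were 200 to 255 and 197 to 228 FPKM. Of 7 smooth muscle and pericyte markers 1 was higher (Rgs5) and 2 lower (Kcnj8 and Pdgfrb, named after their values were seen). The sums over the 7 markers were 102 to 283 and 152 to 334 FPKM. Of 6 leukocyte markers tested (7 listed), 2 were higher, S100a8 and S100a9, with sums of 57.7 to 74.1 and 81.9 to 147 FPKM. Ptprc, carried by nearly all leukocytes and named after its value was seen, had a log2 fold change of −0.93 (adjusted p = 0.067, limma) and was called lower with no intensity trend. Of 3 atrial genes tested, 1 was higher (Sln), and the sums were 2.52 to 6.85 and 6.16 to 140 FPKM. The 4 epicardial markers summed to 3.89 to 6.54 and 4.55 to 7.80 FPKM. These counts moved with the scaling. After quantile normalization 7 of the 8 endothelial markers were called lower (median log2 fold change −0.97), and without mitochondrial mRNAs 5 were (median −1.002). The fibroblast calls turned to 0 higher and 2 lower under both scalings (medians −0.32 and −0.20), and the smooth muscle and leukocyte medians were also below 0, at −0.15 each after quantile normalization and at −0.34 and −0.43 without mitochondrial mRNAs. Of all 10942 genes tested, 25.5% were called higher and 7.36% lower as deposited. The numbers of all genes called lower were 1559 after quantile normalization, 2831 without mitochondrial mRNAs and 8732 against the cardiomyocyte markers. In the last of these scalings 8 endothelial, 7 fibroblast, 6 smooth muscle and 4 leukocyte markers were called lower (limma). None of these markers was at 0 in every sample, and the 3 erythroid markers were not matched by symbol. Their part in the results for the 10 factors was not tested.

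Partners of the factors were mixed. The cofactors and regulators comprised 23 genes, of which 19 were tested. Of these, 5 were called higher, which were Zfpm1 (a partner of GATA factors), Smyd1 (a muscle methyltransferase), Hopx (a homeodomain-only protein that restrains Srf), Fhl2 and Ankrd1, and 1 was lower (Nfatc4), all named after their values were seen. Without sham replicate 3 only 2 were called higher and 0 lower (limma). As deposited, 25.5% of all 10942 genes tested were called higher and 7.36% lower. The balance of calls in the list turned with the scaling, to 4 higher and 4 lower under median centring, 3 and 4 under quantile normalization, 2 and 6 without mitochondrial mRNAs and 0 and 15 against the cardiomyocyte markers. Over all genes it turned as well, in the same order to 2020 and 1554, 1441 and 1559, 772 and 2831, and 37 and 8732. The median log2 fold change of the cofactors and regulators was 0.04, and it was below 0 after centring on the median (−0.21), quantile normalization (−0.07) and rescaling without mitochondrial mRNAs (−0.74). Ankrd1, a stress-induced partner in the muscle nucleus, went from 104 ± 41.8 to 432 ± 185 FPKM (SD, n = 3 each, log2 fold change 2.04, adjusted p = 0.0049, limma). Fhl2, a LIM protein that binds Srf, went from 142 ± 28.3 to 322 ± 75.3 FPKM (log2 fold change 1.17, adjusted p = 0.011, limma). Hdac5, a repressor of MEF2 factors, was at 10.1 ± 1.73 and 12.8 ± 3.17 FPKM (log2 fold change 0.32, adjusted p = 0.36, limma).

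Other transcription factors of heart development stood on both sides of 0. Of 24 listed, 14 were tested, 2 were called higher (Tcf21 and Heyl) and 2 lower (Tbx18 and Hey1, also named after their values were seen), with a median log2 fold change of 0.17, which turned to −0.07 after centring on the median, to −0.09 after quantile normalization and to −0.58 without mitochondrial mRNAs. Tcf21, a fibroblast and epicardial factor, had a log2 fold change of 1.42 (adjusted p = 0.0068, limma), Heyl, a Notch target, one of 0.67 (adjusted p = 0.0496) and Hey1, another, one of −0.63 (adjusted p = 0.043, limma). With each rat left out in turn 1 was called higher and 0 to 1 lower, and without MI/RI replicate 1 the median was −0.07.

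Among the known targets, those of cardiac muscle included the troponins and myosins. Of 32 cardiac muscle targets tested, 24 were called higher and 0 lower by limma (0 lower also at an unadjusted p under 0.05), with a median log2 fold change of 1.82 (0.96 after quantile normalization, 1.05 without mitochondrial mRNAs and −0.37 after centring on the cardiomyocyte markers, 7 of which are in this list). The calls were 17 higher and 0 lower after quantile normalization, 16 and 3 without mitochondrial mRNAs and 1 and 9 against the cardiomyocyte markers. Without sham replicate 3 they were 17 higher and 0 lower (limma). Tnni3, Tnnt2 and Myl2 were the most abundant of these targets, with log2 fold changes of 1.92, 2.28 and 1.83 (adjusted p 0.0076, 0.0052 and 0.020, limma). Of 10 immediate early targets of Srf, the 6 that were tested were all called higher, with a median of 3.46, and of 1.27 to 3.67 under the other scalings. The other 4 were left out by the filter on low values, and without it 8 of 9 were called higher. Of the 6 tested, 5 were called higher after quantile normalization and 5 without mitochondrial mRNAs. Against the cardiomyocyte markers 3 were called higher and 1 lower (limma). Egr1, a zinc finger factor, was at 1.78, 1.15 and 1.21 FPKM in the sham rats and at 64.7, 22.5 and 21.4 FPKM in the MI/RI rats, and Mcl1, which restrains cell death, had a log2 fold change of 1.15 (adjusted p = 0.0092, limma).

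Of 14 actin and cytoskeleton targets of Srf, 7 were called higher and 0 lower by limma (0 lower also unadjusted), and 4 to 9 were higher with 1 rat left out (4 without sham replicate 3 or MI/RI replicate 2). After quantile normalization 1 was called higher, without mitochondrial mRNAs 2, and against the cardiomyocyte markers 1 was higher and 11 lower. The median log2 fold change was 0.83, which was 0.05 after quantile normalization, 0.05 without mitochondrial mRNAs and −1.36 against the cardiomyocyte markers. Actb, cytoplasmic actin, had a log2 fold change of 0.70 (adjusted p = 0.044, limma). Myl9 and Tagln, genes of smooth muscle contraction, had values of 0.93 (adjusted p = 0.075) and 0.59 (adjusted p = 0.47, limma) and were not called. As deposited, 25.5% of all 10942 genes tested were called higher and 7.36% lower. After quantile normalization 1441 of all genes were called higher and 1559 lower, and without mitochondrial mRNAs 772 and 2831. Against the cardiomyocyte markers these numbers were 37 and 8732, and with no filter 2198 of 19226 genes were called higher. Each list count stands beside the all-gene count of the same fit, and no list was tested as a set.

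**Figure D5:**
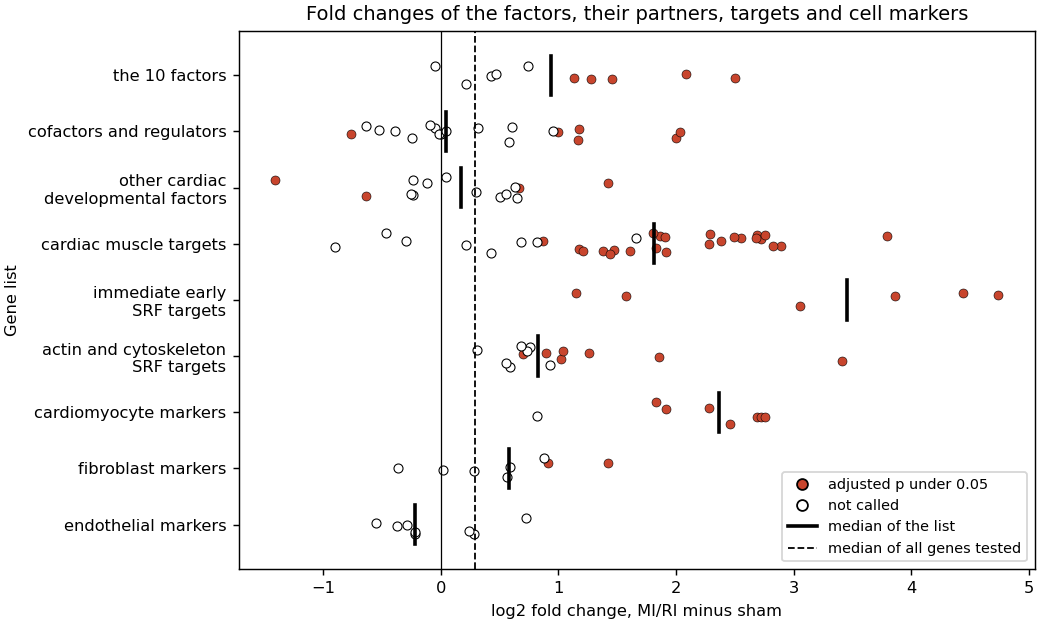
Log2 fold changes of the 10 factors, of their partners and targets and of cell markers, 1 point a gene, filled where the adjusted p was under 0.05, with a bar at each list's median. The immediate early Srf targets have the highest median (3.46), followed by the cardiomyocyte markers (2.37) and the cardiac muscle targets (1.82), and the dashed line marks the median of all genes (0.29).

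Nkx2-5, the factor with the largest fold change, was compared with every gene tested by the root mean square distance of the log2 values over the 6 samples, each gene centred on its own mean. The nearest were Mdh2 (a malate dehydrogenase of mitochondria, distance 0.122), Gatd3a (0.126), Cabcoco1 (0.147), Ldhb (the lactate dehydrogenase subunit typical of heart, 0.151) and Syngr1 (0.163). Mdh2 was measured at 182, 78.7 and 66.1 FPKM in the sham rats and at 891, 422 and 435 FPKM in the MI/RI rats. Like Nkx2-5, it had its highest value of each group in replicate 1, which is no separate result, since it was chosen by its distance over these same samples.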

How the data were processed

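RNA from the myocardium of 3 sham and 3 MI/RI rats was sequenced from total RNA with a stranded kit. The authors deposited 1 table of FPKM values, with Ensembl identifiers and symbols. STAR and HTSeq stand in the submitters' processing notes without versions, and the genome build, the annotation, the strand setting and the total divided by are not given in the sources used here. Genes of one family can share reads where the counting allows it.

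Columns were matched to samples by name. Rows of one symbol were summed, and log2(FPKM + 0.1) of the 10942 genes with a mean of at least 0.5 FPKM was tested with limma 3.58.1 in R 4.3.3 (lmFit, then eBayes with its trend option). P-values were adjusted by Benjamini-Hochberg and called under 0.05. Ratios and the levels relative to the cardiomyocyte markers were compared with exact permutation tests in Python 3.11.15. The labels do not say that each sample is a separate rat, so p-values measure only the spread between these samples, which may be technical. No block was used, since the study's methods pair no rats. After each group mean was subtracted, samples sharing a number correlated across the genes tested (Pearson r 0.203, 0.117 and 0.118 for replicates 1 to 3). Sham replicate 3 correlated as highly with MI/RI replicate 2 (0.12), so the numbers are weakly supported for replicates 2 and 3. By the rule that each same-numbered pair exceed 0.1, the replicate numbers of the labels were taken to pair the samples in an alternative fit.

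The 10 genes and the gene lists were chosen with earlier results of these data known. Named were the 10 factors, the 3 genes of each list with the highest mean FPKM where they bear on a result, and the 5 genes nearest to the factor with the largest fold change, and others only where marked. Alternatives were other pseudocounts (1 and 0.01), other filters (none, and a mean of 5 FPKM), 5 other scalings, no trend, the replicate block, each rat left out, the highest row of a symbol and a threshold of 0.01.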

Additional observations from a re-analysis of the deposited data

How the results depend on the processing

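As reported, 5 of the 10 factors were called higher and 0 lower. The number called higher was 4 with a pseudocount of 1 or 0.01, with no intensity trend, under median centring or quantile normalization, where Gata4 was lost, 3 with no filter on low values, 3 at a mean of 5 FPKM (where fewer factors were tested), 2 at an adjusted p under 0.01, 2 when rescaled without mitochondrial mRNAs and 0 when centred on the cardiomyocyte markers, where 5 were lower. With the rescaling 1 was lower. The 5 lower calls against the cardiomyocyte markers came from limma, and each had p = 0.1 by an exact permutation test. With each rat left out, 2 to 5 were higher and 0 lower, with the fewest without sham replicate 3. With the replicate block 5 were higher again and no call of a factor changed (Gata4, adjusted p = 0.0082, limma). Over the factors the median was 0.17 without mitochondrial mRNAs, 0.47 after quantile normalization, −1.25 against the cardiomyocyte markers, 0.60 without both replicates 1 (chosen after seeing the data) and 0.55 to 1.18 with each rat left out.

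The sign turned in several cases, and apart from the shift that each scaling applies to every gene the cause was not tested. Without mitochondrial mRNAs Mef2a was −0.34, Mef2c −0.55, Mef2d −0.30 and Hand2 −0.039. Against the cardiomyocyte markers Gata4 was −1.05, Tbx5 −0.91, Tbx20 −0.73, Mef2a −1.76, Mef2c −1.96, Mef2d −1.71, Hand2 −1.44 and Srf −0.10. Mef2c was −0.029 after centring on the median and −0.075 without both replicates 1. Gata6 was 0.14 after TPM. With each rat left out Gata6 lay between −0.21 and 0.057 and Mef2c between −0.025 and 0.63. Nkx2-5 stayed above 0 throughout (2.05 to 2.98 with each rat left out, 0.32 against the cardiomyocyte markers), as did its call except against those markers, and Srf kept its call except there.

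With each rat left out the log2 ratio differences lay between −0.18 and 0.42 for Mef2a to Mef2c, −0.26 and 0.27 for Mef2a to Mef2d, −0.64 and 0.029 for Mef2c to Mef2d and −0.49 and 0.0079 for Tbx5 to Tbx20. After quantile normalization Mef2a to Mef2d was 0.14 and Mef2c to Mef2d 0.073, and with a pseudocount of 1 Tbx5 to Tbx20 was 0.019. Over all genes, 2790 were called higher and 805 lower (77.6% of calls higher). Quantile normalization gave 1441 and 1559 (48.0%), the rescaling without mitochondrial mRNAs 772 and 2831 (21.4%), centring on the median 2020 and 1554 (56.5%), the cardiomyocyte markers 37 and 8732 (0.422%), TPM 3449 and 504 (87.3%), a mean of 5 FPKM 1892 and 166 (91.9%), an adjusted p under 0.01 1185 and 211, and each rat left out 1528 to 2557 and 309 to 881.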
